A study of Arabidopsis thaliana with 12 samples.

Results

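SPLAYED (SYD) knockdown seeds of Arabidopsis thaliana were compared with control seeds while both were held on abscisic acid (ABA). The comparison used 6 of the 12 RNA-seq libraries of the series. The groups were amiR-SYD-1 on ABA, amiR-SYD-2 on ABA and amiR-HsMYO on ABA, with 2 libraries each, labelled as biological replicates. They are called SYD1, SYD2 and HsMYO here. The SYD lines carry artificial microRNAs named for SYD, and HsMYO carries one named for HsMYO and is labelled as the wild-type control, so every group carried an artificial microRNA transgene. Seeds were sown on diluted MS medium with 2 µM (±)-ABA, kept for 3 days at 4 °C in the dark and then for 24 h in a cycle of 16 h light and 8 h dark. The other 6 libraries came from the same lines on 0.002% ethanol and show where the effect on ABA differed from that without ABA. They also entered the low-count filter, the scaling between libraries and the estimate of the spread behind every p-value. The sources used here give neither the promoter of the transgenes, nor the number of insertions per line, nor whether the replicates came from separate plants. So p-values measure the spread between replicate libraries, estimated over all 12. Genes that passed the low-count filter were tested, 19612 of 36795 entries. A gene counted as changed in both lines when each SYD line differed from HsMYO in the same direction.

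SYD is an ATPase of the SWI/SNF family, whose complexes use ATP to slide or evict nucleosomes and so open or close regulatory DNA. BRAHMA (BRM) is its closest relative in Arabidopsis. ABA keeps seeds dormant and also arrests freshly germinated embryos before they green. It binds PYR/PYL receptors, which then block clade A PP2C phosphatases and so free SnRK2 kinases to activate bZIP factors such as ABI5, and ABI5 in turn drives late embryogenesis abundant (LEA) genes such as EM1 and EM6.

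SYD mRNA, which the microRNAs target, was reduced in both lines on ABA but far from absent. SYD (AT2G28290, chr2:12056213-12073279, plus strand) stood at 145 and 153 CPM in SYD1, 126 and 147 CPM in SYD2, and 196 and 230 CPM in HsMYO. CPM give a gene's reads relative to its library's total, scaled between libraries by TMM factors. All 4 SYD-line libraries lay below both HsMYO libraries, with an average 1.5-fold lower (log2 -0.58 ± 0.08 SE, adjusted p = 3.7e-05, edgeR quasi-likelihood test with Benjamini-Hochberg adjustment, used for every adjusted p below). SYD1 (log2 -0.52) and SYD2 (log2 -0.64) were each called. BRM stood at 188 and 203 CPM in SYD1, 183 and 197 CPM in SYD2, and 180 and 183 CPM in HsMYO, SYD2 replicate 1 being level with HsMYO, and its difference of 0.08 ± 0.06 SE did not pass the test (adjusted p = 0.32). CHR23, which encodes another ATPase of the family, was lower at 24.2 and 23.9 CPM in SYD1, 29.3 and 26.8 CPM in SYD2, and 37.4 and 44 CPM in HsMYO (log2 -0.65 ± 0.07 SE, adjusted p = 6.3e-06). Of the 11 SWI/SNF subunit genes tested, SYD and CHR23 fell in both lines and none rose, though 1 was called higher without HsMYO replicate 1. Protein was not measured.

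**Figure D1:**
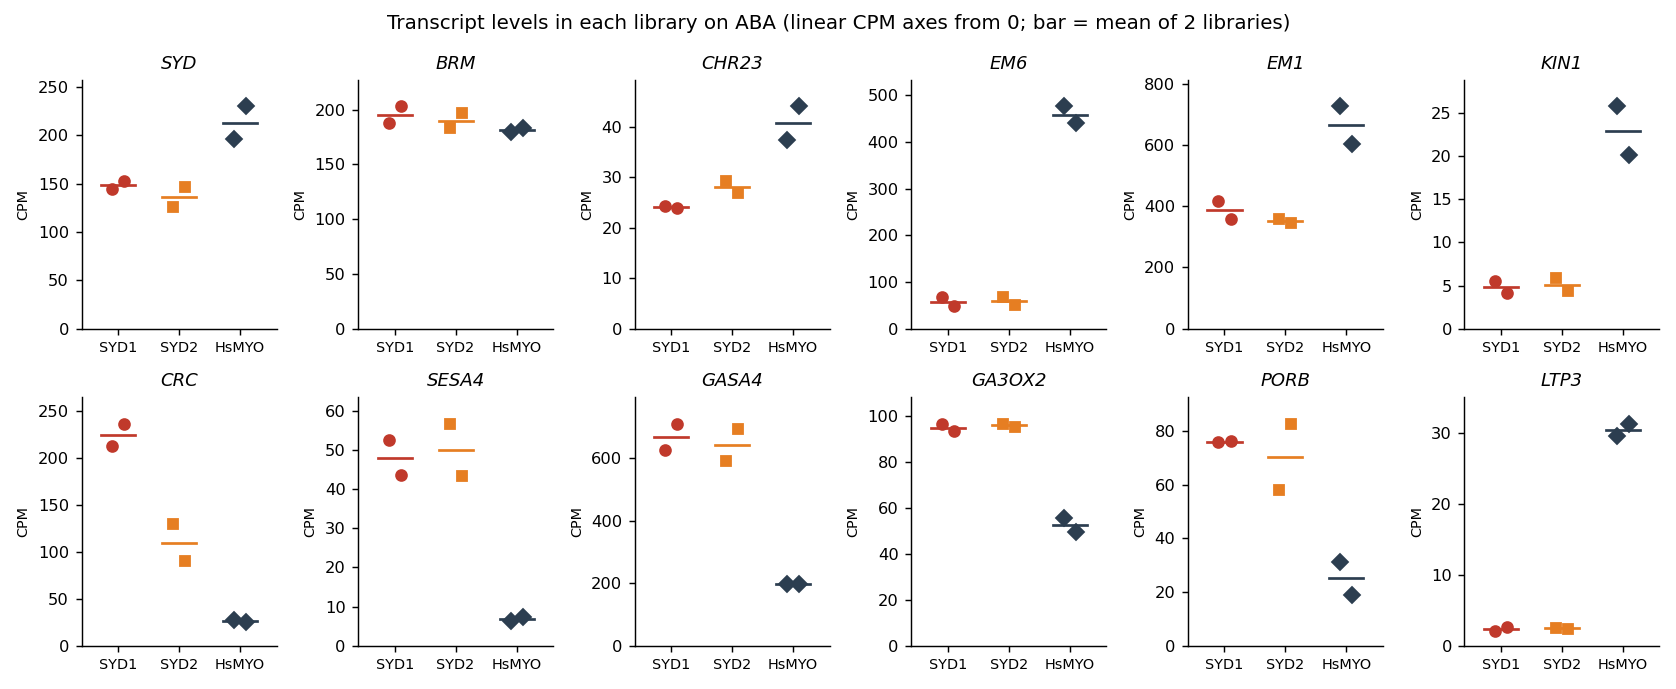
CPM of 12 genes in each of the 6 ABA libraries (y axis, linear from 0), for SYD1, SYD2 and HsMYO (x axis). Each point is a library and each bar the mean of 2 libraries. Except for BRM, the 4 SYD-line libraries sit on one side of both HsMYO libraries, as for EM6 at 48.3 to 67.7 CPM in the SYD lines, against 441 to 476 CPM in HsMYO.

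Total counts per ABA library ran from 19736632 to 23121495 in the SYD lines and from 25486979 to 30012796 in HsMYO, and a count of 3 stood for 0.101 to 0.162 CPM over the 12 libraries. The replicates differed by more than counting error, with a chi-square per degree of freedom of 2.4 in SYD1, 3.78 in SYD2 and 13.3 in HsMYO. The first principal component of the 6 libraries held 61.8% of the variance and separated the SYD lines (22.2 to 26.6) from HsMYO (-52.2 and -45.8). The second held 15.1% and separated SYD1 (-20.9 and -19.7) from SYD2 (17.4 and 25), with HsMYO near 0.

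**Figure D2:**
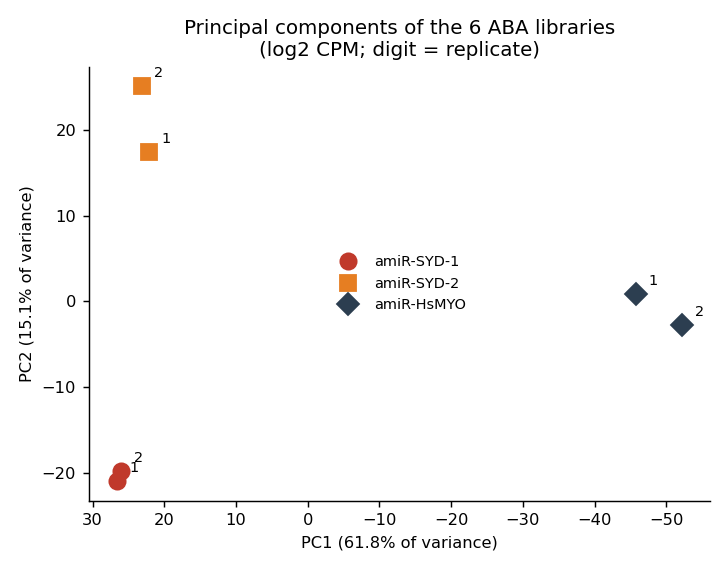
First and second principal components of log2 CPM in the 6 ABA libraries, with the x axis drawn from high to low. Each point is a library and its digit the replicate number. The SYD lines lie at 22.2 to 26.6 on the first component, against -52.2 and -45.8 for HsMYO.

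Of 19612 tested genes, 6401 (32.6%) differed between the mean of the SYD lines and HsMYO at an adjusted p under 0.05, 3290 higher (16.8%) and 3111 lower (15.9%). SYD1 differed from HsMYO for 5139 genes (26.2%) and SYD2 for 5009 (25.5%). Both lines differed in the same direction for 3647 genes (18.6%), 2059 higher (10.5%) and 1588 lower (8.1%), and 1 gene was called in opposite directions. Both lines were set against the same 2 HsMYO libraries, so this count is not a check of one line by another. The split was more uneven with RLE scaling in the same test, at 2287 higher and 1368 lower genes in both lines (62.6% higher). With DESeq2 it was more uneven still. Both lines then had 1902 higher and 844 lower genes (69.3% higher, against 56.5% here), the mean 2980 and 1840 (61.8% against 51.4%) and SYD2 2426 and 1183 (67.2% against 54.1%). Most changes were small. The median size was 0.549 on the log2 scale among genes changed in both lines and 0.188 over all tested genes. Of the genes changed in both lines, 902 differed at least 2-fold in the mean of the lines (499 higher, 403 lower). All 4 SYD-line libraries lay on one side of both HsMYO libraries for 9110 genes (46.5%). The counts below are read against these shares and against a median of -0.02 over all tested genes. Without SYD1 replicate 2 on ABA 2357 genes were called in both lines, and without SYD2 replicate 2 on ABA 2343; leaving out any other single library kept this total within 1.5 times. The genes lower in both lines numbered 910, 903, 915 and 865 without SYD1 replicate 1 or 2 or SYD2 replicate 1 or 2 on ABA, over 1.5 times fewer than the 1588. Below, a library named as left out is an ABA library unless ethanol is stated.

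LEA genes, whose products protect drying embryos, stood lower in the SYD lines more often than higher. Of 13 LEA and late maturation genes tested, 6 fell in both lines and 1 rose, with a median of -0.22. In the mean of the lines, 6 were called lower and 4 higher. EM6 (AT2G40170, chr2:16779552-16780368, minus strand; GEA6 in the reference), which encodes a hydrophilic seed protein and is a direct target of ABI5, stood at 67.7 and 48.3 CPM in SYD1, 66.9 and 51.6 CPM in SYD2, and 476 and 441 CPM in HsMYO. Its SYD-line libraries were all far below HsMYO, 7.82-fold lower in the mean (log2 -2.97 ± 0.17 SE, adjusted p = 7.4e-09). EM1 (AT3G51810), its close relative, stood at 418 and 359 CPM in SYD1, 359 and 346 CPM in SYD2, and 726 and 602 CPM in HsMYO (log2 -0.84 ± 0.18 SE, adjusted p = 0.0025), also without overlap. The EM1 call ended with DESeq2 (log2 -0.82, adjusted p = 0.14) and with a robust estimate of the spread (adjusted p = 0.059).

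ECP63, another LEA gene, stood at 717 and 674 CPM in SYD1, 817 and 689 CPM in SYD2, and 1425 and 1089 CPM in HsMYO (log2 -0.80 ± 0.17 SE, adjusted p = 0.0027; adjusted p = 0.057 with the robust spread). RAB28, LEA4-5 and XERO1 fell by less, at -0.71, -0.59 and -0.35 on the log2 scale. The one that rose was SAG21, a LEA protein gene also known from senescence and oxidative stress, at 589 and 678 CPM in SYD1, 648 and 759 CPM in SYD2, and 190 and 245 CPM in HsMYO (log2 1.62 ± 0.12 SE, adjusted p = 9.8e-08). LEA7 at -0.20 ± 0.13 SE and the peroxiredoxin gene PER1 at -0.22 ± 0.15 SE did not pass. The count of lower LEA genes was 3 with DESeq2, and 2 without HsMYO replicate 1, SYD1 replicate 2 or SYD2 replicate 2, and the median of the list was -0.37 without SYD2 replicate 1. With no low-count filter 2 rose.

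Seed storage protein genes moved the other way. Of 14 storage and oil body genes tested, 5 rose in both lines and 2 fell, and the median was 1.02. CRC (AT4G28520, chr4:14087556-14089796, plus strand; CRU3 in the reference), which encodes a 12S cruciferin, stood at 213 and 237 CPM in SYD1, 130 and 90.1 CPM in SYD2, and 27.2 and 25.3 CPM in HsMYO. Every SYD-line library exceeded HsMYO, though SYD1 and SYD2 were themselves apart, and the mean was 5.99-fold higher (log2 2.58 ± 0.48 SE, adjusted p = 0.00084). SESA4, which encodes a 2S albumin (AT4G27170, chr4:13613596-13614283, plus strand), stood at 52.4 and 43.6 CPM in SYD1, 56.7 and 43.3 CPM in SYD2, and 6.25 and 7.36 CPM in HsMYO, 7.21-fold higher (log2 2.85 ± 0.30 SE, adjusted p = 5e-06). SESA2 stood at 110 and 89.7 CPM in SYD1, 113 and 112 CPM in SYD2, and 26.6 and 27.4 CPM in HsMYO (log2 1.97 ± 0.19 SE, adjusted p = 1.9e-06). SESA3 and SESA1 rose by 2.03 and 1.77 on the log2 scale. These 4 SESA genes are near-identical tandem copies, so the split of reads among them is uncertain.

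The genes for oleosins, which coat oil bodies, were not part of that rise. OLEO2 stood at 209 and 199 CPM in SYD1, 189 and 147 CPM in SYD2, and 399 and 332 CPM in HsMYO and fell (log2 -0.98 ± 0.19 SE, adjusted p = 0.00096), and OLEO3 fell by less (-0.38 ± 0.09 SE). OLEO1 stood at 110 to 171 CPM in the SYD lines, against 294 to 314 CPM in HsMYO and was called in the mean but not in both lines. CRA1, for another cruciferin, stood at 518 to 775 CPM in the SYD lines, against 316 to 477 CPM in HsMYO and did not pass (adjusted p = 0.13). With DESeq2 or with the robust spread, 2 storage genes were called higher in both lines in place of 5, and 3 without SYD2 replicate 1. The oleosin falls were no firmer, since no storage or oil body gene was called lower in both lines with DESeq2 or without SYD1 replicate 2, and 1 with RLE scaling or the robust spread and without HsMYO replicate 1, SYD1 replicate 1 or SYD2 replicate 2.

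The promoters of the genes that carried this contrast are shown because both groups are known targets of ABA-linked factors that read short DNA motifs. Each sequence is the 250 bases before the annotated gene start, 5′ to 3′ on the gene's strand, from RefSeq TAIR10.1. Capitals mark the ABRE core ACGTG, read by ABI5-type bZIP factors, and the RY motif CATGCA, read by B3 factors such as ABI3, on either strand (CACGT and TGCATG when reversed).
EM6 (chr2:16780369-16780618, minus strand): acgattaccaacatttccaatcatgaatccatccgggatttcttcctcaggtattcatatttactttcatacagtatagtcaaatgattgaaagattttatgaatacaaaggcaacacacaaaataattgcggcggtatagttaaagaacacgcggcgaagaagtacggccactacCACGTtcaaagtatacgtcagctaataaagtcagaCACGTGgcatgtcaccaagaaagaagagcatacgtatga
EM1 (chr3:19214472-19214721, plus strand): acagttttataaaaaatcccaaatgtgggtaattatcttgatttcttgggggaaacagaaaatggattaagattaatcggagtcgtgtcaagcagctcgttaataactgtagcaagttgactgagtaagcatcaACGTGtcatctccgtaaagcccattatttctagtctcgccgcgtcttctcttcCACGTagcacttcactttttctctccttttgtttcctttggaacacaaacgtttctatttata
CRC (chr4:14087306-14087555, plus strand): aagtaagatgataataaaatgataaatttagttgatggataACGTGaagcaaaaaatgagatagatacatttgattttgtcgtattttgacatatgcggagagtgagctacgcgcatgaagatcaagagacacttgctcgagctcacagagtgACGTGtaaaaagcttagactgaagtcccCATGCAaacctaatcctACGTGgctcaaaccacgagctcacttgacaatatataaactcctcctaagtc
SESA4 (chr4:13613346-13613595, plus strand): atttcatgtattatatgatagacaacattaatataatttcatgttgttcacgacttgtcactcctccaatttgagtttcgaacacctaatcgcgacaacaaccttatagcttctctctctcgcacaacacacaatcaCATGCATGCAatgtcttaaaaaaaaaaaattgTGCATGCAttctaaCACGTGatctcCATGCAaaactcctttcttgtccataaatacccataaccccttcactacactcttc
EM6 had 3 matches to the ABRE core and EM1 had 2, with no RY match in either window. CRC had 3 ABRE cores and 1 RY match, and SESA4 had 2 ABRE cores and 6 RY matches, counting both strands and overlaps. Among tested genes of the lists, 13 of 14 storage and oil body promoters held an RY match (92.9%), against 2 of 13 LEA promoters (15.4%) and 7.61% of 19548 promoters of all tested genes. Those 14 include both the storage genes that rose and the oleosin genes that fell, so this share covers both directions. The ABRE core was in 9 of 14 storage promoters (64.3%), 10 of 13 LEA promoters (76.9%) and 23.9% of all. Among all genes higher in both lines 8.21% held an RY match, and among those lower 9.26%, close to the 7.61%, while the ABRE core was in 28.3% and 26.8%. A match is only these letters in this window and shows no binding.

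**Figure D3:**
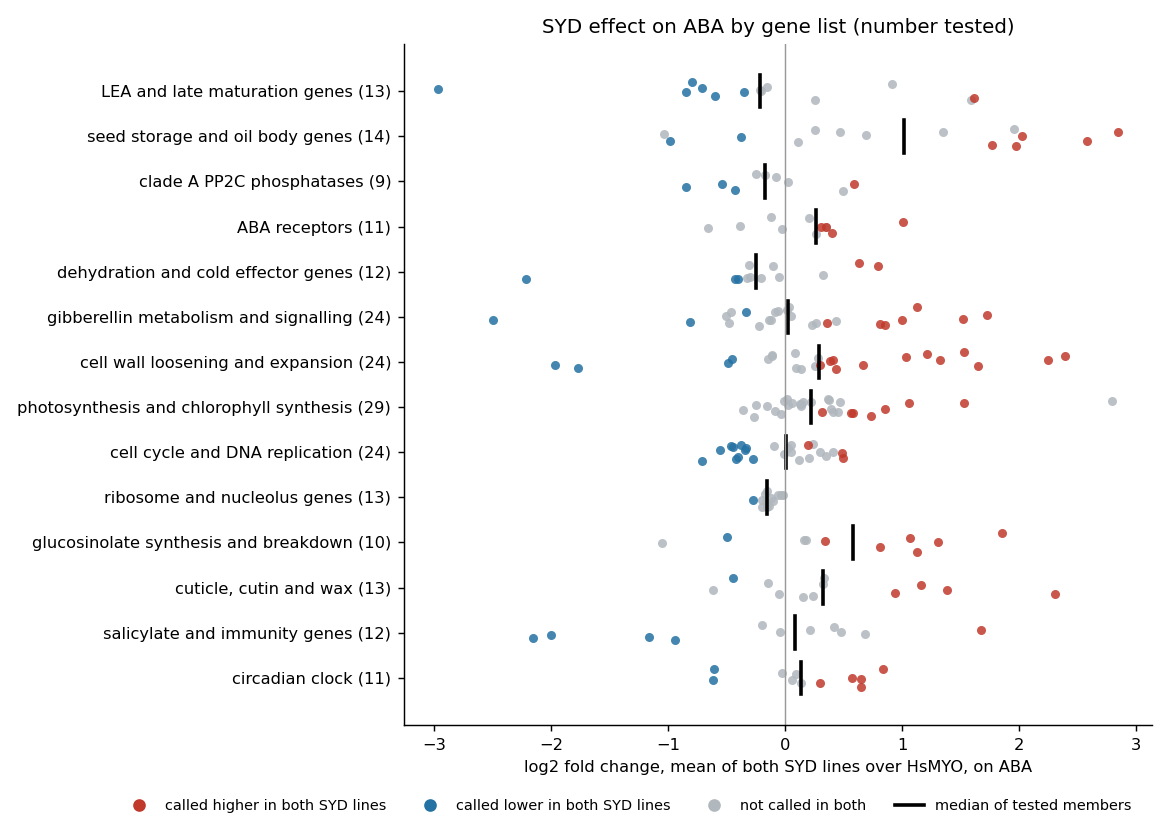
Log2 fold change of the mean of both SYD lines over HsMYO on ABA (x axis) for the tested members of 14 gene lists (rows, with the number tested). Points are genes, coloured by their call in both lines, and black bars are medians; PR1 and MAH1, with few counts in HsMYO, are left out of the points. Storage genes centre at 1.02 and LEA genes at -0.22.

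Genes of the ABA pathway itself moved in both directions and by modest amounts. Of 16 ABA-linked seed transcription factor genes, 1 rose and 2 fell in both lines (median -0.10). ABI5 (AT2G36270, chr2:15204659-15207636, minus strand) stood at 162 and 165 CPM in SYD1, 169 and 157 CPM in SYD2, and 211 and 208 CPM in HsMYO, lower in every SYD-line library (log2 -0.36 ± 0.07 SE, adjusted p = 0.0012). ABI3, for the B3 factor that works with ABI5 in seeds, stood at 387 and 364 CPM in SYD1, 365 and 353 CPM in SYD2, and 330 and 342 CPM in HsMYO and did not pass (log2 0.13 ± 0.08 SE, adjusted p = 0.24). ABI4, an AP2-type factor gene, stood at 130 and 134 CPM in SYD1, 143 and 153 CPM in SYD2, and 119 and 131 CPM in HsMYO with overlapping groups (log2 0.16 ± 0.07 SE, adjusted p = 0.091), although it passed without HsMYO replicate 2 (0.24, adjusted p = 0.047). ABF1, for a bZIP factor related to ABI5, rose (12.3 to 15.6 CPM in the SYD lines, against 7.29 to 9.28 CPM in HsMYO; log2 0.72 ± 0.11 SE, adjusted p = 0.00017). AFP2, for a protein that binds ABI5 and dampens ABA responses, fell (log2 -0.39 ± 0.08 SE, adjusted p = 0.0013). Of ABI5 and AFP2, 1 was called lower in both lines with DESeq2 and without HsMYO replicate 1, SYD1 replicate 1 or 2, or SYD2 replicate 2.

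Receptor genes tended to be higher. Of 11 tested, 4 rose in both lines and none fell, with a median of 0.27. PYL6 stood at 8.8 and 10.5 CPM in SYD1, 8.65 and 10 CPM in SYD2, and 4.44 and 4.99 CPM in HsMYO, 2.02-fold higher and without overlap (log2 1.01 ± 0.12 SE, adjusted p = 1.5e-05). PYL4, PYR1 and PYL5 rose by 0.40, 0.35 and 0.30 on the log2 scale, in which all fold changes without another unit are given. Among 9 clade A PP2C genes, 1 rose and 3 fell. ABI1 stood at 81.8 and 91.4 CPM in SYD1, 71.7 and 87.2 CPM in SYD2, and 55.1 and 54.8 CPM in HsMYO (log2 0.59 ± 0.10 SE, adjusted p = 0.00028), whereas its close relative ABI2 stood at 8.85 and 9.56 CPM in SYD1, 7.5 and 8.13 CPM in SYD2, and 14.5 and 16.1 CPM in HsMYO (log2 -0.85 ± 0.10 SE, adjusted p = 9.6e-06). AHG1 and AHG3 (PP2CA in the reference), phosphatase genes with seed roles, fell, with log2 fold changes of -0.54 and -0.43. Of 9 SnRK2 kinase genes only SNRK2.8 changed in both lines (-0.37 ± 0.07 SE), and OST1 at 0.16 ± 0.07 SE did not pass. The call of ABI1 in both lines was lost without SYD2 replicate 2, and that of SNRK2.8 without HsMYO replicate 2, SYD2 replicate 1 or SYD2 replicate 2.

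Genes for ABA turnover showed few changes. In both lines 2 rose and 1 fell of 11 tested (median -0.07), where 10.5% and 8.1% did so over all genes. CYP707A3, for an ABA 8'-hydroxylase that inactivates the hormone, stood at 84.6 and 79.3 CPM in SYD1, 87.3 and 79.4 CPM in SYD2, and 42.1 and 40.7 CPM in HsMYO (log2 1.00 ± 0.07 SE, adjusted p = 7.6e-08). All SYD-line libraries were about as high as each other. CYP707A2, for the seed form of this enzyme, was lower at 49 to 56.1 CPM in the SYD lines, against 64.8 to 67.9 CPM in HsMYO (log2 -0.36 ± 0.06 SE, adjusted p = 0.00025). ABA2, for a late step of ABA synthesis, rose (5.34 to 5.57 CPM in the SYD lines, against 2.77 to 3.86 CPM in HsMYO; log2 0.71 ± 0.14 SE, adjusted p = 0.0015). The other 8 tested genes for ABA synthesis and breakdown were not called in both lines, NCED9 for the seed dioxygenase among them at -0.07 ± 0.14 SE. Without SYD1 replicate 2 CYP707A2 was no longer called in both lines, and without HsMYO replicate 2 only 1 gene of the list was called higher.

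Of 12 tested dehydration and cold effector genes, 2 rose and 3 fell in both lines (median -0.25). KIN1, for a small cold- and ABA-induced protein, stood at 5.52 and 4.18 CPM in SYD1, 5.82 and 4.38 CPM in SYD2, and 25.8 and 20.2 CPM in HsMYO, 4.63-fold lower (log2 -2.21 ± 0.14 SE, adjusted p = 2.2e-08). KIN1 has a near-identical tandem neighbour, KIN2, which stood at 52.2 to 58.9 CPM in the SYD lines, against 61.2 to 65.2 CPM in HsMYO and was not called in both lines. RD29A stood at 121 and 125 CPM in SYD1, 123 and 117 CPM in SYD2, and 165 and 161 CPM in HsMYO (log2 -0.42 ± 0.11 SE, adjusted p = 0.0084), a call that DESeq2 did not make (adjusted p = 0.51). RD29B stood at 587 and 593 CPM in SYD1, 648 and 570 CPM in SYD2, and 790 and 680 CPM in HsMYO (log2 -0.29 ± 0.15 SE, adjusted p = 0.15) and RAB18 at 608 and 569 CPM in SYD1, 423 and 330 CPM in SYD2, and 711 and 456 CPM in HsMYO (log2 -0.31 ± 0.29 SE, adjusted p = 0.44), and neither passed. RD22 (11.5 to 18.1 CPM in the SYD lines, against 7.29 to 9.41 CPM in HsMYO; 0.80 ± 0.10 SE) and P5CS1, for proline synthesis (9.75 to 12.8 CPM in the SYD lines, against 7.1 to 7.39 CPM in HsMYO; 0.64 ± 0.10 SE), rose. TSPO, for a membrane protein of stressed cells, fell (-0.40). Only 1 effector gene was called lower in both lines with DESeq2 or the robust spread, and without HsMYO replicate 1, SYD1 replicate 1 or 2, or SYD2 replicate 2. The median was -0.11 without HsMYO replicate 1, and 1 gene was called higher without SYD2 replicate 2.

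Gibberellin, the hormone that opposes ABA in germination, is made by GA20-oxidases and then GA3-oxidases, and DELLA proteins restrain its action. Of 24 tested genes of this pathway, 7 rose and 3 fell in both lines (median 0.02). GA3OX2 (AT1G80340, chr1:30200466-30202349, minus strand) stood at 96.5 and 93.2 CPM in SYD1, 96.6 and 95 CPM in SYD2, and 55.7 and 49.4 CPM in HsMYO, 1.81-fold higher with no overlap (log2 0.86 ± 0.07 SE, adjusted p = 1.4e-07). GA3OX1 stood at 8.69 and 8.55 CPM in SYD1, 8.16 and 10.1 CPM in SYD2, and 4.64 and 4.22 CPM in HsMYO (log2 1.00 ± 0.13 SE, adjusted p = 4.1e-05). GA20OX2 stood at 7.98 and 8.69 CPM in SYD1, 6.4 and 6.8 CPM in SYD2, and 2.72 and 2.44 CPM in HsMYO (log2 1.52 ± 0.14 SE, adjusted p = 1.6e-06), and GA20OX3 rose by 1.13, with SYD1 above SYD2. Among DELLA genes, RGL2, the main seed repressor of germination, was lower at 310 and 306 CPM in SYD1, 299 and 298 CPM in SYD2, and 389 and 374 CPM in HsMYO (log2 -0.33 ± 0.06 SE, adjusted p = 0.0009). GAI fell (-0.81), RGL1 rose by 0.81, and RGA (0.01 ± 0.06 SE) and RGL3 (0.06 ± 0.07 SE) did not pass.

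The gibberellin-regulated GASA peptide genes split widely. GASA4 stood at 626 and 711 CPM in SYD1, 592 and 695 CPM in SYD2, and 197 and 198 CPM in HsMYO, 3.32-fold higher (log2 1.73 ± 0.09 SE, adjusted p = 4.6e-09), and GASA6, which promotes germination, rose too (108 to 128 CPM in the SYD lines, against 55.4 to 57 CPM in HsMYO; 1.03 ± 0.08 SE). GASA1 stood at 18.4 and 13.6 CPM in SYD1, 20.3 and 24.1 CPM in SYD2, and 110 and 103 CPM in HsMYO, 5.64-fold lower (log2 -2.50 ± 0.09 SE, adjusted p = 9.3e-11). Of 10 tested dormancy and germination regulators, 2 rose and 1 fell. These were GASA6, PIL5 for a light-regulated factor that represses germination (93.2 to 109 CPM in the SYD lines, against 69.7 to 78.8 CPM in HsMYO; 0.46 ± 0.06 SE), and RGL2. DOG1, a dormancy gene, had 14 counts over the SYD lines and 8 over HsMYO and was not tested. RGL2 was not called in both lines without SYD1 replicate 1 or 2.

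Genes for cell wall loosening and water uptake, which let cells expand, were more often higher than lower. Of 24 tested, 12 rose and 4 fell in both lines (median 0.29), where 10.5% and 8.1% did so over all genes. EXPA11, for an expansin, stood at 13.8 and 10.9 CPM in SYD1, 11.2 and 10.3 CPM in SYD2, and 2.49 and 1.85 CPM in HsMYO, 5.27-fold higher (log2 2.40 ± 0.16 SE, adjusted p = 3.4e-08). TIP1;1, for a vacuolar water channel of expanding cells, stood at 2.1 and 2.71 CPM in SYD1, 2.65 and 5.02 CPM in SYD2, and 0.605 and 0.666 CPM in HsMYO, low in every library but without overlap (log2 2.25 ± 0.29 SE, adjusted p = 2.7e-05). EXPA8 (174 to 190 CPM in the SYD lines, against 59.2 to 65.7 CPM in HsMYO; 1.53 ± 0.07 SE), EXPA9 (364 to 476 CPM in the SYD lines, against 199 to 206 CPM in HsMYO; 1.03 ± 0.07 SE) and XTH9, for a xyloglucan-modifying enzyme (90.5 to 115 CPM in the SYD lines, against 38.4 to 51.1 CPM in HsMYO; 1.22 ± 0.10 SE), rose.

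The cellulose synthase genes CESA1, CESA3 and CESA6 rose by 0.67, 0.39 and 0.44. EXPA1 was lower at 327 and 351 CPM in SYD1, 320 and 335 CPM in SYD2, and 461 and 448 CPM in HsMYO (log2 -0.45 ± 0.06 SE, adjusted p = 5.8e-05). EXPA5 (0.221 to 0.511 CPM in the SYD lines, against 0.941 to 1.33 CPM in HsMYO; -1.96 ± 0.35 SE) and TIP1;2 (1.37 to 3.59 CPM in the SYD lines, against 5.77 to 10.9 CPM in HsMYO; -1.77 ± 0.25 SE), both at low levels, fell as well. The wall genes XTH24 and EXT4 were among the largest named falls, given further below. The main expansin of germinating seeds, EXPA2, stood at 831 to 921 CPM in the SYD lines, against 889 to 1010 CPM in HsMYO and did not pass (adjusted p = 0.33). Without HsMYO replicate 1 or SYD1 replicate 2, 2 genes of the list were called lower in both lines in place of 4, and the median was 0.19 without HsMYO replicate 2.

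Among 29 photosynthesis and chlorophyll genes, 7 rose in both lines and none fell (median 0.22). PORB (AT4G27440, chr4:13725546-13727440, plus strand), for the enzyme that makes chlorophyllide in light, stood at 75.8 and 76.3 CPM in SYD1, 58 and 82.8 CPM in SYD2, and 31.3 and 19.1 CPM in HsMYO, 2.89-fold higher (log2 1.53 ± 0.16 SE, adjusted p = 5.1e-06). GLK2 stood at 75.5 and 73.3 CPM in SYD1, 57.3 and 58.4 CPM in SYD2, and 33.5 and 29.2 CPM in HsMYO (log2 1.06 ± 0.07 SE, adjusted p = 2.3e-08) and GLK1 at 22.7 to 25.3 CPM in the SYD lines, against 12.8 to 15.5 CPM in HsMYO (log2 0.74 ± 0.10 SE, adjusted p = 3.6e-05), both for factors that switch on photosynthesis genes. GUN5, for a subunit of magnesium chelatase, rose (30 to 65.9 CPM in the SYD lines, against 23.9 to 26.8 CPM in HsMYO; log2 0.86 ± 0.22 SE, adjusted p = 0.0086), though not with the robust spread (adjusted p = 0.1) or without HsMYO replicate 2 (adjusted p = 0.066). LHCA4, PSAD-1 and CHLD rose by 0.56, 0.58 and 0.32.

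Several light-harvesting genes were not called. LHCB3 (-0.35 ± 0.15 SE), LHCB6 (-0.04 ± 0.17 SE) and LHCA1 (-0.09 ± 0.14 SE) did not pass, and the RuBisCO small subunit gene RBCS1A stood at 2095 to 2525 CPM in the SYD lines, against 1832 to 2034 CPM in HsMYO, called in the mean only. PORA had 0.265 to 0.868 CPM in the SYD lines and 0.037 and 0.101 CPM in HsMYO and was called in the mean only. SYD2 replicate 2 was the highest library for several of these genes, GUN5, LHCB5 and RBCS2B among them. The count of higher genes was 4 without HsMYO replicate 2 or SYD1 replicate 2, and 13 with no low-count filter, and 1 gene was called lower without HsMYO replicate 2 or with no filter. The median of the list was 0.06 without SYD2 replicate 2 and 0.40 without HsMYO replicate 1.

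DNA replication genes were lower while some mitotic genes were higher. Of 24 tested cell cycle genes, 10 fell and 3 rose in both lines, with a median of 0.01. All 6 tested genes of the MCM2-7 helicase, which unwinds DNA at origins, fell. MCM6 stood at 17.5 and 19.3 CPM in SYD1, 21 and 18.9 CPM in SYD2, and 29.3 and 27.1 CPM in HsMYO (log2 -0.56 ± 0.07 SE, adjusted p = 3.8e-05), and MCM7, MCM3, MCM5, MCM4 and MCM2 had log2 fold changes of -0.46, -0.42, -0.40, -0.38 and -0.33. The sliding clamp genes PCNA1 (-0.34) and PCNA2 (-0.44) and the ribonucleotide reductase gene RNR1 (-0.28) also fell. CYCD1;1, for a cyclin active in early germination, stood at 17.5 and 18.9 CPM in SYD1, 18.5 and 19.4 CPM in SYD2, and 29.3 and 31.5 CPM in HsMYO (log2 -0.71 ± 0.09 SE, adjusted p = 2.5e-05).

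CYCB1;2 (9.84 to 12.1 CPM in the SYD lines, against 6.88 to 8.37 CPM in HsMYO; 0.50 ± 0.12 SE) and CDKB2;1 (11.1 to 12.6 CPM in the SYD lines, against 6.84 to 10.2 CPM in HsMYO; 0.48 ± 0.13 SE), genes of the G2 to M phase, and CYCD2;1 (0.20 ± 0.06 SE) rose. The calls for CYCB1;2 (adjusted p = 0.07) and CDKB2;1 (adjusted p = 0.16) ended without HsMYO replicate 2. The count of lower genes was 5 without HsMYO replicate 1 or SYD2 replicate 1 and 6 without SYD2 replicate 2, and that of higher genes was 0 without SYD1 replicate 1 or SYD2 replicate 1 and 1 with only the ABA libraries fitted, without HsMYO replicate 2 or without SYD1 replicate 2. Of 13 ribosome and nucleolus genes, only the ribosomal protein gene PFL fell (-0.28 ± 0.06 SE), and none rose. This call in both lines was lost without HsMYO replicate 1, SYD1 replicate 1 or either SYD2 library, while 3 genes were called lower without HsMYO replicate 2 and 2 with the replicate block.

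A few genes that use stored oil were slightly higher. Of 18 tested reserve mobilisation genes, 4 rose in both lines and none fell (median 0.16). ICL, for isocitrate lyase of the glyoxylate cycle, stood at 27403 and 27753 CPM in SYD1, 26171 and 27737 CPM in SYD2, and 18601 and 16439 CPM in HsMYO, the groups apart (log2 0.64 ± 0.09 SE, adjusted p = 7.4e-05). PCK1, for gluconeogenesis, stood at 5859 to 6810 CPM in the SYD lines, against 4683 to 5202 CPM in HsMYO (log2 0.36 ± 0.07 SE, adjusted p = 0.001), and CSY2 and ACX3 rose by 0.51 and 0.40. MLS, for malate synthase, stood at 4623 to 4949 CPM in the SYD lines, against 3676 to 4669 CPM in HsMYO and did not pass. Without HsMYO replicate 1, 9 of these genes were called higher, with a median of 0.25, and without HsMYO replicate 2 the median was 0.08. Of 7 raffinose family and sugar genes, GOLS1 (8.13 to 11.8 CPM in the SYD lines, against 4.59 to 5.21 CPM in HsMYO; 0.97 ± 0.14 SE), RS5 (0.60 ± 0.10 SE) and SUS1 (0.79 ± 0.23 SE) rose and STS, for stachyose synthase, fell (2.61 to 4.46 CPM in the SYD lines, against 5.88 to 6.05 CPM in HsMYO; -0.84 ± 0.18 SE). The SUS1 call ended with DESeq2 (adjusted p = 0.087), with the robust spread (0.086), and without HsMYO replicate 2 (0.11) or SYD1 replicate 2 (0.073). The fall of STS was not called in both lines with DESeq2, or without either HsMYO library, SYD1 replicate 1 or SYD2 replicate 2.

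More genes of the glucosinolate pathway, which makes defence compounds, rose than fell. Of 10 tested, 6 rose and 1 fell in both lines (median 0.58). TGG1, for a myrosinase that breaks glucosinolates down, stood at 345 and 328 CPM in SYD1, 314 and 309 CPM in SYD2, and 160 and 136 CPM in HsMYO (log2 1.13 ± 0.10 SE, adjusted p = 5.5e-07). TGG2 stood at 8.64 and 7.03 CPM in SYD1, 8.12 and 5.98 CPM in SYD2, and 2.45 and 1.63 CPM in HsMYO (log2 1.85 ± 0.18 SE, adjusted p = 2e-06). CYP79B2, for the first step from tryptophan, stood at 60.7 and 59.9 CPM in SYD1, 93.8 and 92.5 CPM in SYD2, and 38.6 and 21.7 CPM in HsMYO (log2 1.31 ± 0.15 SE, adjusted p = 9.3e-06), and its relative CYP79B3 rose by 1.07, with SYD2 above SYD1. CYP83B1 and SUR1 rose by 0.81 and 0.35, and the nitrile-specifier gene NSP1 fell (-0.50). The count of higher genes was 4 without HsMYO replicate 2 or SYD1 replicate 1 or 2, the median was 0.36 with no filter, and NSP1 was not called in both lines without HsMYO replicate 1 or either SYD2 library.

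Cuticle and flavonoid genes changed mostly upward. Of 13 tested cuticle genes, 5 rose and 1 fell in both lines (median 0.32). CER1, for making wax alkanes, stood at 93.4 and 92 CPM in SYD1, 105 and 107 CPM in SYD2, and 40.2 and 35.9 CPM in HsMYO (log2 1.38 ± 0.07 SE, adjusted p = 2.2e-09). CER2, a wax elongation gene, stood at 12.4 and 10.6 CPM in SYD1, 11.7 and 10.7 CPM in SYD2, and 2.69 and 1.85 CPM in HsMYO, 4.96-fold higher (log2 2.31 ± 0.15 SE, adjusted p = 3.1e-08). MAH1 (CYP96A15 in the reference), for the hydroxylase acting on alkanes, had 154 counts over the 4 SYD-line libraries and 1 count over HsMYO, a ratio of 102 (exact 95% interval 18 to 4049, counting error only). CUT1 (KCS6 in the reference) and GPAT8 rose by 1.16 and 0.94, and LCR, for a cutin hydroxylase, fell (-0.45). The cuticle median was 0.13 without HsMYO replicate 2 and 0.56 without HsMYO replicate 1, and LCR was not called in both lines without SYD1 replicate 2. Of 8 flavonoid genes, the chalcone enzyme genes TT4 (120 to 130 CPM in the SYD lines, against 79.5 to 95.8 CPM in HsMYO; 0.51 ± 0.09 SE) and TT5 (0.46 ± 0.08 SE) and the flavonol synthase gene FLS1 (0.32 ± 0.07 SE) rose and none fell, though 1 was called lower without SYD1 replicate 2.

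Immune genes did not move as 1 block. Of 12 tested, 2 rose and 4 fell in both lines. ICS1 (EDS16 in the reference), for salicylate synthesis, stood at 24.8 and 25.7 CPM in SYD1, 23 and 25.3 CPM in SYD2, and 7.19 and 8.28 CPM in HsMYO, 3.2-fold higher (log2 1.68 ± 0.08 SE, adjusted p = 1e-09). PR1, the classic salicylate marker, had 103 counts over the SYD lines and 1 over HsMYO, a ratio of 68.1 (exact 95% interval 12 to 2717). The pattern receptor gene FLS2 stood at 0.972 and 1.56 CPM in SYD1, 2.34 and 2.65 CPM in SYD2, and 4.03 and 3.96 CPM in HsMYO (log2 -1.16 ± 0.17 SE, adjusted p = 9.8e-05), lower in every SYD-line library. The immune kinase genes FRK1 (0.511 to 0.927 CPM in the SYD lines, against 2.82 to 2.92 CPM in HsMYO; -2.15 ± 0.30 SE) and IOS1 (0.256 to 0.574 CPM in the SYD lines, against 1.41 to 1.52 CPM in HsMYO; -2.00 ± 0.33 SE) and the factor gene WRKY33 (5.34 to 8.92 CPM in the SYD lines, against 9.64 to 15.7 CPM in HsMYO; -0.94 ± 0.17 SE) fell. Without SYD2 replicate 2, 2 immune genes were called lower in both lines in place of 4.

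Jasmonate, heat and auxin genes each held some members changed in both lines. Of 14 jasmonate and ethylene genes, the repressor genes JAZ10 (1.33 to 1.72 CPM in the SYD lines, against 3.97 to 4.18 CPM in HsMYO; -1.39 ± 0.18 SE) and JAZ1 (-0.53 ± 0.13 SE; adjusted p = 0.055 without HsMYO replicate 2) fell, and the ethylene receptor gene ERS1 rose (0.37 ± 0.06 SE). Of 6 heat shock genes, HSP18.2 rose (1.06 to 1.59 CPM in the SYD lines, against 0.407 to 0.47 CPM in HsMYO; 1.62 ± 0.30 SE) and the factor gene HSFA2 fell (2.1 to 3.32 CPM in the SYD lines, against 4.3 to 8.1 CPM in HsMYO; -1.14 ± 0.24 SE), the second with adjusted p = 0.081 without HsMYO replicate 2. Neither heat gene was called in both lines without SYD2 replicate 2, nor HSFA2 without SYD1 replicate 2, and only 1 jasmonate gene was called lower without HsMYO replicate 2, SYD1 replicate 2 or either SYD2 library. Of 19 auxin genes, 5 rose and none fell, with the transporter gene LAX3 (2.02 to 2.82 CPM in the SYD lines, against 0.814 to 1.31 CPM in HsMYO; 1.21 ± 0.23 SE), GH3.1 (0.64 ± 0.14 SE), GH3.6 (0.55 ± 0.08 SE) and PIN2 (0.41 ± 0.09 SE) leading. The auxin count was 3 with DESeq2, 2 without HsMYO replicate 2, and 3 without SYD1 replicate 1 or 2 or SYD2 replicate 1. With DESeq2, no filter, the block or the robust spread, or without HsMYO replicate 2, 1 auxin gene was called lower.

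Clock genes that peak toward evening were among those higher. Of 11 tested clock genes, 5 rose and 2 fell in both lines. PRR5 stood at 14.8 and 17.9 CPM in SYD1, 15.4 and 15.4 CPM in SYD2, and 8.9 and 8.88 CPM in HsMYO (log2 0.84 ± 0.09 SE, adjusted p = 6.5e-06). GI (50.5 to 53.1 CPM in the SYD lines, against 30.5 to 36 CPM in HsMYO; 0.65 ± 0.07 SE), LUX (36.9 to 43.8 CPM in the SYD lines, against 25 to 27.4 CPM in HsMYO; 0.65 ± 0.06 SE), ELF4 (0.57 ± 0.10 SE) and TOC1 (0.30 ± 0.07 SE) rose, and LHY (21.3 to 32.5 CPM in the SYD lines, against 35.8 to 44.7 CPM in HsMYO; -0.61 ± 0.09 SE) and RVE8 (8.69 to 11.1 CPM in the SYD lines, against 13.6 to 16.3 CPM in HsMYO; -0.62 ± 0.13 SE) fell. CCA1 stood at 8.08 to 12.6 CPM in the SYD lines, against 7.46 to 12.1 CPM in HsMYO and did not pass. Without SYD1 replicate 2, 3 of these genes were called higher in both lines and 1 lower. No clock gene was called lower in both lines without HsMYO replicate 2 or SYD1 replicate 1, and 1 with DESeq2. The libraries are from 1 time, so a shift of phase and a change of level cannot be told apart.

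Few chromatin and flowering genes changed in both lines. Of 17 Polycomb and Trithorax genes only CLF, for a histone H3K27 methyltransferase, rose in both lines (70.8 to 77 CPM in the SYD lines, against 52.7 to 53.6 CPM in HsMYO; log2 0.47 ± 0.06 SE, adjusted p = 1.9e-05), and none fell; RLE scaling and the block called 2 higher. Of 10 MADS-box and phase change genes only SVP fell (1.13 to 1.94 CPM in the SYD lines, against 2.4 to 2.92 CPM in HsMYO; log2 -0.80 ± 0.20 SE, adjusted p = 0.0064). The call of SVP in both lines was lost with RLE scaling, with DESeq2, with only the ABA libraries fitted, and on leaving out any single library other than HsMYO replicate 2 or SYD1 replicate 2 on ABA (adjusted p of the mean = 0.072 without HsMYO replicate 1). FLC, for the floral repressor, stood at 3.48 and 4.41 CPM in SYD1, 3.31 and 3.97 CPM in SYD2, and 4.44 and 5.1 CPM in HsMYO and did not pass (adjusted p = 0.1).

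The largest named rises, among genes of at least 5 CPM in the higher group, included SESA4, CRC, EXPA11 and CER2, given above. BAM5, for a beta-amylase, stood at 6.96 and 5.52 CPM in SYD1, 5.82 and 4.29 CPM in SYD2, and 0.571 and 0.296 CPM in HsMYO, 12.6-fold higher (log2 3.66 ± 0.27 SE, adjusted p = 1e-07). CEP2, for a cysteine endopeptidase, stood at 11 and 11.2 CPM in SYD1, 11.6 and 12.8 CPM in SYD2, and 2.32 and 1.41 CPM in HsMYO (log2 2.63 ± 0.19 SE, adjusted p = 7.5e-08). SEN1, a gene switched on in the dark and in senescence, stood at 86.9 and 91.1 CPM in SYD1, 87 and 96.6 CPM in SYD2, and 18.9 and 15.8 CPM in HsMYO (log2 2.38 ± 0.08 SE, adjusted p = 3.1e-11). The groups lay far apart for each of these. JAL22, for a jacalin-type lectin, rose by 2.36, CYP705A5, for triterpene synthesis in the thalianol pathway, by 2.29, and CBSX5, for a CBS-domain protein, by 2.27.

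The largest named falls were led by UPI, for a serine protease inhibitor, at 0.153 and 0.184 CPM in SYD1, 0.353 and 0.411 CPM in SYD2, and 6.92 and 7.1 CPM in HsMYO, 27-fold lower (log2 -4.75 ± 0.20 SE, adjusted p = 4.5e-10). EXT4, for a cell wall extensin, stood at 1.43 and 1.66 CPM in SYD1, 0.838 and 0.639 CPM in SYD2, and 13.1 and 18.8 CPM in HsMYO (log2 -3.89 ± 0.35 SE, adjusted p = 8.4e-07), and extensin genes share sequence, so its reads may be split. LTP3, for a lipid transfer protein, stood at 2.15 and 2.67 CPM in SYD1, 2.56 and 2.37 CPM in SYD2, and 29.6 and 31.3 CPM in HsMYO (log2 -3.64 ± 0.10 SE, adjusted p = 1.9e-12). Its SYD-line libraries differed little from each other. UPS4, for a ureide permease, PCR2, for a zinc exporter, and NAC6, a NAC factor gene also known as ORE1, fell, with log2 fold changes of -2.96, -2.87 and -2.67. XTH24, for a xyloglucan-modifying enzyme, and SIAR1, for an amino acid transporter, fell likewise (-2.65 and -2.55).

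Some genes were near silent in 1 group. AT3G05170 had 462 counts over the SYD lines and 1 over HsMYO, a ratio of 306 (exact 95% interval 54.6 to 12096). ARD3, for a dioxygenase of methionine salvage, had 198 counts and 1 (ratio 131, 23.2 to 5199), and GLIP2, for a secreted lipase, had 103 and 0, at least 22.7-fold higher against a floor of 3 counts over HsMYO. AT4G07270 had 1 count over the SYD lines and 182 over HsMYO, a ratio of 275 lower (48.8 to 10927). AT2G13175 had 25 and 26.9 CPM in SYD2, 0 in SYD1, and 0 and 0.037 CPM in HsMYO, so it marks 1 line only. Without ABA, AT3G05170 had 601 counts over the SYD lines and 1 over HsMYO, and ARD3 had 376 and 1. GLIP2 had 286 and 3 there, and AT2G13175 had 1059 and 0. The contrasts of these genes were thus not particular to ABA. For AT4G07270 no such ratio was formed without ABA. All 5 were chosen after their values were seen.

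The SYD effect was then compared between treatments, using the 6 ethanol libraries. None of these is an ABA library, but they came from the same lines and share the fit. A difference particular to the HsMYO line would recur under both treatments. It cannot be told apart from a SYD effect, so agreement between treatments is not a separate check. Without ABA, 6311 genes (32.2%) differed between the mean of the SYD lines and HsMYO. Of the 3647 genes changed in both lines on ABA, 2403 (65.9%) were also called in the same direction without ABA, 44 in the opposite direction, and 1200 were not called there. Over all tested genes, the log2 effects under the 2 treatments had r = 0.605, across genes, which are not independent replicates. The difference between the effects was itself called for 1008 genes (5.14%), 527 higher and 481 lower on ABA, and for 562 (15.4%) of the 3647. The 1008 became 1817 with no low-count filter, 1584 without HsMYO replicate 1 on ABA and 540 without HsMYO replicate 1 on ethanol. Its split was 341 higher and 391 lower without HsMYO replicate 2 on ABA. Without HsMYO replicate 1 on ethanol, 3455 genes differed on ethanol in place of 6311. Of these 562, 278 were not called without ABA (204 higher and 74 lower on ABA), 44 were opposite, 154 went the same way but further on ABA and 86 the same way but less far. The 3647 were picked by their calls on ABA, from the same ABA libraries that enter the difference. This choice alone favours larger effects on ABA, so the 15.4% and the split of the 562 are only descriptive.

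Among the genes named, MAH1 with its 1 count in HsMYO left aside, the largest called difference was that of STS, on ABA at 2.61 to 4.46 CPM in the SYD lines, against 5.88 to 6.05 CPM in HsMYO, but without ABA at 1.15 to 3.14 CPM in the SYD lines, against 0.177 to 0.236 CPM in HsMYO (log2 -4.07 ± 0.45 SE, adjusted p = 0.0001). STS in HsMYO without ABA lay near the 0.101 to 0.162 CPM that 3 counts stood for, so the size of its difference is uncertain. Both GA3-oxidase genes differed in effect between treatments. GA3OX1, 2-fold higher on ABA, stood at 14.7 to 17.4 CPM in the SYD lines, against 19.7 to 23.5 CPM in HsMYO without ABA (log2 -0.44, adjusted p = 0.0039), and GA3OX2 at 114 to 122 CPM in the SYD lines, against 121 to 130 CPM in HsMYO (log2 -0.08, adjusted p = 0.35). The differences were log2 1.44 ± 0.17 SE, adjusted p = 0.00017 and log2 0.94 ± 0.09 SE, adjusted p = 3e-05. TIP1;1 without ABA stood at 43.5 to 48.8 CPM in the SYD lines, against 55.1 to 59.6 CPM in HsMYO, for a difference of log2 2.56 ± 0.30 SE, adjusted p = 0.00018. EXPA1, lower on ABA, stood at 581 to 634 CPM in the SYD lines, against 477 to 521 CPM in HsMYO there (log2 -0.75 ± 0.09 SE, adjusted p = 0.00018).

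CER1, 2.61-fold higher on ABA, stood at 379 to 412 CPM in the SYD lines, against 378 to 401 CPM in HsMYO without ABA, where the groups overlapped (log2 1.38 ± 0.09 SE, adjusted p = 2.5e-06). CER2 stood at 19.4 to 26 CPM in the SYD lines, against 14.4 to 15.9 CPM in HsMYO (log2 1.73 ± 0.19 SE, adjusted p = 0.0001) and CYP79B2 at 64.9 to 86 CPM in the SYD lines, against 72.7 to 76.1 CPM in HsMYO (log2 1.30 ± 0.20 SE, adjusted p = 0.0011). Of 13 cuticle genes, 6 differed in effect between treatments, all toward higher on ABA. IOS1, lower on ABA, stood at 4.21 to 8.12 CPM in the SYD lines, against 2.96 to 3.27 CPM in HsMYO with ethanol (log2 -2.93 ± 0.38 SE, adjusted p = 0.00032), and FRK1 at 0.468 to 1.74 CPM in the SYD lines, against 0.839 to 1.38 CPM in HsMYO (log2 -2.15 ± 0.46 SE, adjusted p = 0.012).

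The remaining genes with the largest called differences followed. MEE26, a gene known from embryo development, stood on ABA at 6.94 to 11.7 CPM in the SYD lines, against 2.15 to 2.44 CPM in HsMYO, and with ethanol at 0.148 to 0.288 CPM in the SYD lines, against 0.265 to 0.394 CPM in HsMYO (log2 2.76 ± 0.67 SE, adjusted p = 0.025). Its ethanol levels were near the 0.101 to 0.162 CPM that 3 counts stood for, so the size of its difference is uncertain. RTM2, which restricts virus movement in the phloem, stood on ABA at 10.8 to 22.6 CPM in the SYD lines, against 4.47 to 4.7 CPM in HsMYO, and with ethanol at 23.8 to 31.7 CPM in the SYD lines, against 22.7 to 26.3 CPM in HsMYO (log2 1.61 ± 0.15 SE, adjusted p = 2.9e-05). TBL38, for a wall polysaccharide acetylation protein, stood on ABA at 4.14 to 5.07 CPM in the SYD lines, against 15.6 to 17.1 CPM in HsMYO, and with ethanol at 4.55 to 6.69 CPM in the SYD lines, against 4.21 to 4.46 CPM in HsMYO (log2 -2.14 ± 0.15 SE, adjusted p = 2.5e-06). The effect on ABA was the more positive for CYP705A5 and TGG2 (differences of 1.81 and 1.45). It was the more negative for UPI, NIT2 and PCR2 (-2.56, -2.33 and -1.94).

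Other large changes were called under both treatments. LTP3 stood at 1.69 to 2.3 CPM in the SYD lines, against 22.2 to 23.8 CPM in HsMYO without ABA (log2 -3.49, adjusted p = 1e-11; difference log2 -0.14 ± 0.16 SE, adjusted p = 0.68), and ICS1 at 100 to 133 CPM in the SYD lines, against 35.4 to 37.4 CPM in HsMYO (difference log2 0.01 ± 0.10 SE, adjusted p = 0.97). SESA4 (log2 2.49, adjusted p = 4.1e-05), BAM5 (log2 4.14, adjusted p = 1.2e-07) and SAG21 (log2 1.63, adjusted p = 8.8e-08) were higher without ABA too. EM6 was lower there as well, at 0.971 to 2.44 CPM in the SYD lines, against 3.35 to 8.74 CPM in HsMYO (log2 -1.83, adjusted p = 0.0012), and the difference for EM6 did not pass (log2 -1.13 ± 0.42 SE, adjusted p = 0.15). ABI3 was lower without ABA (log2 -0.52, adjusted p = 0.00016), and the difference between treatments was called (log2 0.65 ± 0.12 SE, adjusted p = 0.0032).

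**Figure D4:**
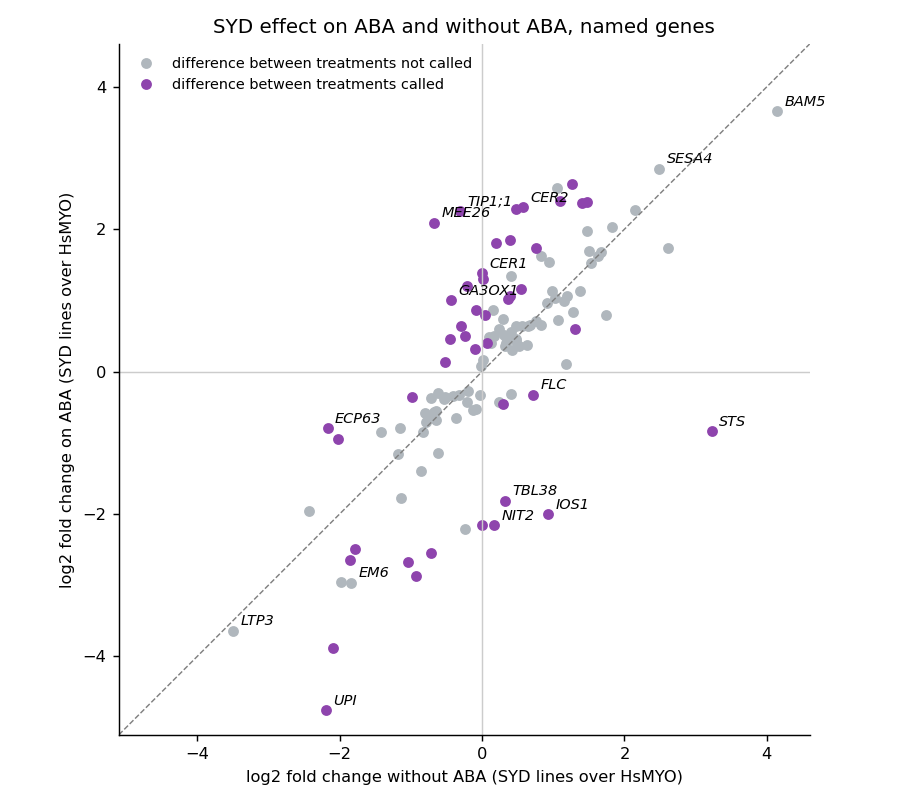
Log2 fold change of the SYD lines over HsMYO on ABA (y axis) against that without ABA (x axis) for 125 named genes; the dashed line marks equal effects. Purple points are the 44 genes whose effects differed between treatments. STS lies at -0.84 on ABA and 3.23 without ABA, where HsMYO had few reads, and LTP3 near the line at -3.64 and -3.49.

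The lines differed from each other for 166 genes on ABA (0.846%), 97 higher and 69 lower in SYD1 than in SYD2. This count was 471 with no low-count filter, 53 and 51 without SYD1 replicate 1 and 2, and 99 and 36 without SYD2 replicate 1 and 2 on ABA. The excess of genes higher in SYD1 was absent in the last 3, with 25 higher and 26 lower, 47 and 52, and 15 and 21. Late embryo genes were among those higher in SYD1. Of 14 storage and oil body genes 4 were called higher in SYD1, and of 13 LEA genes 3, with none lower. SESA5, for a 2S albumin, stood at 105 and 93.5 CPM in SYD1, 8.91 and 5.07 CPM in SYD2, and 10.5 and 10.2 CPM in HsMYO (log2 3.82 ± 0.50 SE, adjusted p = 0.0018), so SYD1 alone stood out and SYD2 lay just below HsMYO. OLEO4 stood at 15.7 and 8.69 CPM in SYD1, 1.81 and 0.913 CPM in SYD2, and 4.2 and 3.33 CPM in HsMYO (log2 3.14 ± 0.67 SE, adjusted p = 0.037), and the LEA gene M17 at 109 and 122 CPM in SYD1, 33.7 and 19.7 CPM in SYD2, and 15 and 22.1 CPM in HsMYO (log2 2.11 ± 0.34 SE, adjusted p = 0.0056). The LEA gene ATECP31 (2.92) and the vicilin-like gene PAP85 (1.72) went the same way, as did the chaperone gene HSP101 (1.58).

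Other genes set SYD1 or SYD2 apart from HsMYO. HVT1, for a helicase, stood at 12.9 and 13.9 CPM in SYD1, 58.3 and 59.9 CPM in SYD2, and 58.7 and 67.4 CPM in HsMYO (log2 -2.14 ± 0.09 SE, adjusted p = 1.7e-09). AATP1, for a mitochondrial ATPase of the AAA family, and PMZ, for a stress-linked zinc finger protein, were lower in SYD1 than in SYD2 (-1.25 and -1.32). NSP2 stood at 8.39 and 52.7 CPM in SYD1, 1.54 and 0.639 CPM in SYD2, and 1.92 and 1.66 CPM in HsMYO (log2 4.80 ± 0.73 SE, adjusted p = 0.0042), a difference in which SYD1 replicate 2 far exceeded replicate 1. NIT2, for a nitrilase, was lower than HsMYO in both lines but more so in SYD2, at 2.3 and 3.17 CPM in SYD1, 0.706 and 0.594 CPM in SYD2, and 6.42 and 5.58 CPM in HsMYO (log2 2.07 ± 0.33 SE, adjusted p = 0.006). SYD itself did not differ detectably between the lines (log2 0.13 ± 0.09 SE, adjusted p = 0.76).

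**Figure D5:**
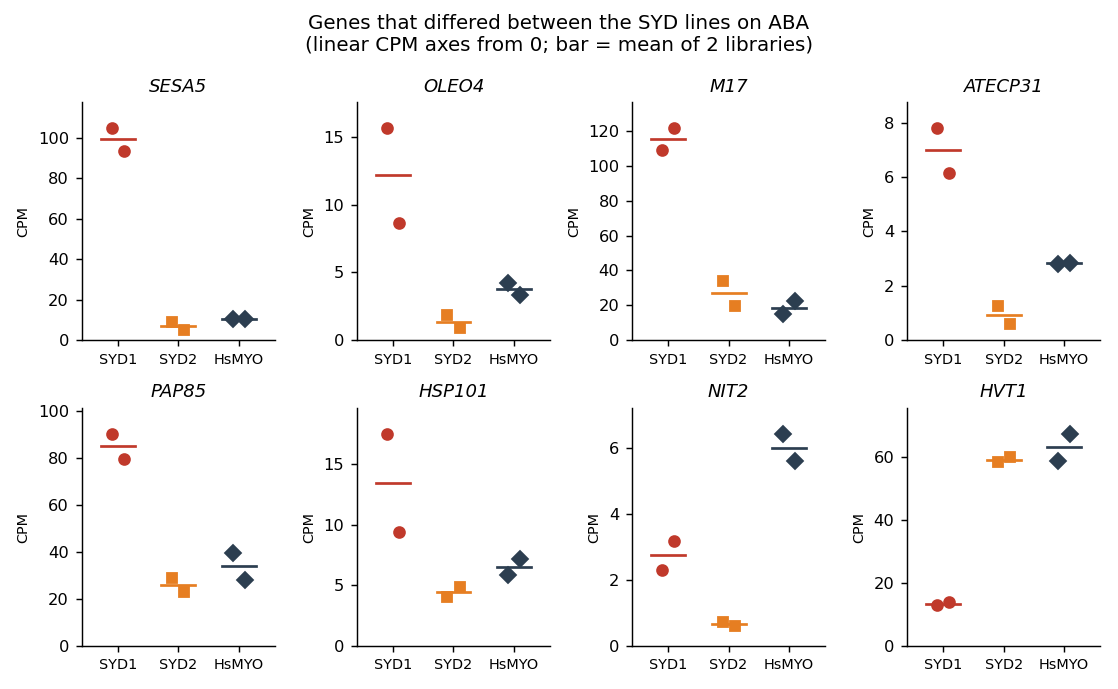
CPM in each of the 6 ABA libraries (y axis, linear from 0) of 8 genes that differed between SYD1 and SYD2 (x axis groups, HsMYO last). Each point is a library and each bar the mean of 2. For SESA5, SYD1 lies at 93.5 and 105 CPM, SYD2 at 5.07 and 8.91 CPM and HsMYO at 10.2 and 10.5 CPM.

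Markers of tissues in the seed were checked beside these results, since in whole seeds fewer cells of a type and less RNA per cell cannot be told apart. The summed level of 9 root epidermis and root hair markers was 65.9 to 70.7 CPM in the SYD lines, against 62.1 to 64.2 CPM in HsMYO. Of these, RHD6 rose (0.64 ± 0.07 SE), GL2 fell (-0.33 ± 0.08 SE; not called in both lines with DESeq2, nor without HsMYO replicate 2 or any single SYD-line library), and EXPA7 was at 0 in every ABA library. The 5 root tip and stele markers summed to 96.5 to 110 CPM in the SYD lines, against 98 to 100 CPM in HsMYO, with none called. The shoot meristem and boundary markers summed to 167 to 170 CPM in the SYD lines, against 199 to 204 CPM in HsMYO. KNAT1 (-0.57 ± 0.07 SE) and ATML1 (-0.34 ± 0.06 SE) fell and CLV1 rose (0.43 ± 0.08 SE; not called in both lines without HsMYO replicate 1 or SYD1 replicate 2), and WUS had 3 counts over the SYD lines and 7 over HsMYO.

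Seed coat markers summed to 2.65 to 2.99 CPM in the SYD lines, against 1.61 to 2.7 CPM in HsMYO, and of 4 members 1 was tested and not called. Endosperm markers summed to 2645 to 3872 CPM in the SYD lines, against 2163 to 2578 CPM in HsMYO, nearly all from EPR1 (2494 to 3715 CPM in the SYD lines, against 1966 to 2389 CPM in HsMYO; log2 0.50 ± 0.19 SE, adjusted p = 0.054), while ZOU and FIS2 were at 0 in all ABA libraries. FWA, an imprinted gene of endosperm that is silenced by methylation elsewhere, rose (2.66 and 2.99 CPM in SYD1, 3.88 and 2.69 CPM in SYD2, and 0.773 and 1.07 CPM in HsMYO; log2 1.73 ± 0.26 SE, adjusted p = 0.00011), and ICE1 fell (-0.36 ± 0.06 SE). The part of tissue makeup in the results above was not tested.

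Changed genes were spread over the genome. The share changed in both lines was 18.8, 18.9, 18.7, 18.3 and 18.5% on chromosomes 1 to 5. By type, 19% of 18892 protein-coding genes changed in both lines, against 7.92% of 202 long noncoding RNA genes. The longest runs of neighbouring tested genes called in the same direction held 5 genes, and all 3 were higher in the SYD lines. One run held SESA1, SESA2, SESA3, SESA4 and ATK2 (chr4:13607329-13619312), another held CIP7, AT4G27435, PORB, AT4G27450 and CBSX5 (chr4:13718007-13734531), and the third held 5 genes from AT1G28570 to AT1G28640 (chr1:10041576-10069177).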

How the data were processed

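Stranded mRNA libraries of 12 seed samples were sequenced as paired reads, per the labels' protocols. Trimmomatic 0.39, STAR 2.7.10a and the TAIR10 genome are named in the submitters' processing notes; the counting program, its strand setting and the annotation release were not given in the sources used here. So overlapping and antisense genes may share reads. The authors deposited raw counts per gene for 36795 entries, and 36632 of these were found by locus tag in RefSeq TAIR10.1, whose symbols, coordinates and promoter sequences are used. Totals ran from 18713555 to 30012796 counts per library.

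Genes were tested with edgeR 4.0.16 in R 4.3.3 by its quasi-likelihood F-test, 2-sided, after TMM scaling and filterByExpr with a minimum count of 10. The fit held 1 mean per group over all 12 libraries, which gave 6 residual and 9.2 prior degrees of freedom and a common coefficient of variation of 6.27%. Genes were called at a p under 0.05 after Benjamini-Hochberg adjustment over all 19612 genes tested. CPM are on the TMM scale, and SE is the log2 fold change divided by the root of F. Genes with 3 or fewer counts in a group are given as a ratio with an exact 95% interval, or as a bound from 3 counts over the group, both covering counting error only. The fit was tested on simulated counts.

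Alternatives were RLE scaling, no low-count filter, DESeq2 1.42.0, only the 6 ABA libraries, the replicate number as a block, a robust spread and each library left out. The members, the lists and the tests were chosen with earlier results of these data known. Of 457 list genes, 402 passed the filter and 55 did not. Named genes were SYD, the 10 highest and 10 lowest log2 fold changes of at least 5 CPM in the higher group among genes with a symbol that were called in both lines and did not overlap, up to 4 such genes per list, a fixed set of ABA and germination genes, the 5 highest and 5 lowest differences between treatments, and the 3 highest and 3 lowest between lines. Other genes were named after their values were seen, mainly to complete a small group of called list members or to give members that were not called.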

Additional observations from a re-analysis of the deposited data

Results flagged for a closer look

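The SYD effect on ABA differed from that without ABA by a test of the difference itself for 1008 genes, and SYD1 differed from SYD2 on ABA for 166. The named genes among them follow, with the log2 effect on ABA minus that without ABA, or SYD1 over SYD2, by edgeR's quasi-likelihood test.

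Among the largest changes, the effect on ABA was the more positive for CYP705A5 (1.81), CER2 (1.73), JAL22 (0.96), SEN1 (0.90), EXPA11 (1.30), CEP2 (1.36), RTM2 (1.61), MEE26 (2.76, with few reads without ABA) and AATP1 (1.08). It was the more negative for UPI (-2.56), EXT4 (-1.79), PCR2 (-1.94), NAC6 (-1.64), XTH24 (-0.80), SIAR1 (-1.83), GASA1 (-0.71), NIT2 (-2.33) and TBL38 (-2.14).

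Among ABA and seed genes the difference was positive for PYL6 (0.64), PYL4 (0.33), CYP707A2 (0.62), RD22 (0.75), P5CS1 (0.93), ECP63 (1.37) and ABI3 (0.65), and negative for ABI1 (-0.71) and STS (-4.07, with few reads in HsMYO without ABA). Among growth genes it was positive for GASA4 (0.98), GA3OX1 (1.44), GA3OX2 (0.94), TIP1;1 (2.56) and LAX3 (1.42), and negative for EXPA1 (-0.75) and the floral repressor gene FLC (-1.04).

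Among defence and surface genes it was positive for TT4 (0.74), TT5 (0.91), FLS1 (0.42), TGG2 (1.45), CYP79B2 (1.30), CYP79B3 (0.67), CER1 (1.38), CUT1 (0.61) and MAH1 (4.54, a fitted value that rests on 1 count in HsMYO on ABA). It was negative for the immune kinase genes FRK1 (-2.15) and IOS1 (-2.93).

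SYD1 exceeded SYD2 for RD22 (0.50), GA20OX3 (0.84), GLK2 (0.36), NIT2 (2.07), OLEO4 (3.14), SESA5 (3.82) and NSP2 (4.80). It was below SYD2 for RTM2 (-0.82), CYP79B3 (-1.10), HVT1 (-2.14), PMZ (-1.32) and AATP1 (-1.25).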

How the results depend on the processing

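Among the 126 named genes, the log2 fold change on ABA changed sign only for RAB18, without HsMYO replicate 1, and OLEO4, without 1 of 3 ABA libraries, neither of which was called with all libraries. With all libraries kept, totals of calls over all genes left the range of 1.5 times for the difference between treatments (1008), at 1817 with no low-count filter and 1628 with the replicate number as a block, and for the difference between the lines (166), at 471 with no filter. By direction, DESeq2 called 844 genes lower in both lines (1588), 1840 in the mean (3111), 1445 in SYD1 (2384) and 1183 in SYD2 (2298). Without HsMYO replicate 2 on ABA the difference between treatments had more genes lower (391) than higher (341). Counts within lists also moved, as given beside them. List medians changed sign in several lists, for example that of cell cycle genes (0.00721, and -0.0684 without HsMYO replicate 2 on ABA). Root epidermis markers had 0.449 over 9 genes, and -0.311 over the 4 tested with only the ABA libraries. Immune genes had 0.0871 over 12 genes, and -0.0396 over the 11 tested with only the ABA libraries. The 1 tested seed coat marker had 0.39, and the list had -0.341 over 4 genes with no filter. Where the number tested differs, the medians are not of the same genes. With each library left out in turn, the mean of the SYD lines gave 4737 to 6573 genes (6401 with all), SYD1 2910 to 5312 (5139), SYD2 2727 to 5223 (5009), both lines 2343 to 3798 (3647), the ethanol comparison 3455 to 7016 (6311), the difference between treatments 540 to 1584 and that between the lines 36 to 217. The log2 fold change of SYD ran from -0.685 to -0.459. Beyond the change in which genes were tested, the cause of these shifts was not tested.

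The replicate numbers are not said to mark a shared batch. Deviations of same-numbered libraries correlated at -0.0339 to 0.149 over the group pairs, and the third component of the ABA libraries (8.7%) placed replicate 1 above replicate 2 in all 3 groups. With the replicate block 7460 genes were called for the mean, 6110 for SYD1, 6034 for SYD2, 4412 in both lines, 7198 on ethanol and 241 between the lines.

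Of 126 named genes, 13 lost a call for the mean of the SYD lines on ABA and 4 gained one under at least 1 setting, 7 of the 13 with all libraries kept. Calls in both lines were not scored in this count, and further genes lost those, as given beside the lists. SESA5, which differed between the lines, lost its call for the mean under 7 settings, and PMZ without HsMYO replicate 2 (adjusted p = 0.3) or SYD1 replicate 1 (adjusted p = 0.057). RD29B passed with no filter, with only the ABA libraries and with the block, and RAB18 with no filter. RLE scaling and DESeq2 moved the median of all genes by 0.024 on the log2 scale. With 2 libraries a group, small differences were not detectable at this depth for genes of few counts.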
